A study of Homo sapiens with 12 samples.

Results

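The guanylate-binding proteins GBP1, GBP2, GBP3, GBP4 and GBP5 were followed in SK-N-DZ neuroblastoma cells with and without interferon gamma (IFNγ) and with and without an induced hairpin against ARID1A. The members were the rows of the deposited count table that carry these names, and 5 rows of 43769 genes matched. RNA was sequenced from 12 libraries in 4 groups of 3, which bear the replicate numbers 1, 2 and 3. SK-N-DZ is an established human neuroblastoma line, and the study derived from it a clonal line with a lentiviral hairpin against ARID1A, a DNA-binding subunit of the SWI/SNF chromatin remodelling complex, under doxycycline control. The comparisons asked how the response to IFNγ changed when ARID1A was knocked down.

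Group C (labelled Control, genotype WT) received neither agent, group D (Dox, genotype shARID1A) received doxycycline for 4 days, group I (IFN, genotype WT) received IFNγ for 24 h, and group DI (Dox IFN, genotype shARID1A) received both. The libraries are of 1 line, and no library received doxycycline without the hairpin, so doxycycline, the hairpin and loss of ARID1A cannot be told apart. Nothing in the labels says that the libraries of a group came from separate cultures, so the p-values measure the spread between these libraries. That spread was more than counting error, with a chi-square per gene of 19.8 to 85 between libraries of a group. All 12 libraries deviated from their group means most like libraries of their own replicate number. Whether the spread arose in separate cultures or in technical steps was not tested, so it may be technical.

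Guanylate-binding proteins are large GTPases of the dynamin superfamily that interferons induce, IFNγ above all. They assemble on the membranes of intracellular bacteria and of vacuoles that hold parasites, help to break them open, and bring caspase-4 to bacterial lipopolysaccharide. GBP1, GBP2 and GBP5 carry a C-terminal motif for a lipid (prenyl) anchor, whereas GBP3 and GBP4 as a rule lack one, and GBP5 is also known to promote assembly of the NLRP3 inflammasome. Their genes lie side by side on chromosome 1 and are textbook targets of IRF1, a transcription factor of the IFNγ pathway.

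Library totals ran from 16469832 to 21790869 counts, with a median of 19253482.5, and levels are given as CPM (counts scaled to a common library size, here edgeR's effective library sizes). A total of 3 counts in a library, taken as the floor of detection, is worth 0.135 to 0.187 CPM. ARID1A itself averaged 183 ± 16.4 CPM (SD, n = 3) in C and 171 ± 22.2 in D. With IFNγ it averaged 196 ± 5.7 CPM in I and 144 ± 9.7 in DI. Its log2 difference was -0.09 (SE 0.11) for D against C, with an adjusted p of 0.788, and -0.44 (SE 0.11) for DI against I, with an adjusted p of 0.115, by edgeR's quasi-likelihood test. With the replicate number as a block, the DI against I adjusted p was 0.0111. The groups are therefore named by their labels, and the depth of the knockdown is not taken from the RNA. All 10 markers of adrenergic neuroblastoma averaged over 1 CPM in every group, at a summed 3426 to 5196 CPM per library. Immune cell markers summed to 0.198 to 1.5 CPM with 0 of 6 averaging over 1 CPM in any group, and endothelial markers to 0.116 to 2.95 CPM. Fibroblast markers, some of which neuroblastoma cells can express, summed to 45.5 to 72.7 CPM (C) and 33.0 to 71.8 CPM (D) without IFNγ, and to 71.8 to 122 CPM (I) and 57.6 to 101 CPM (DI) with it, and their part in the values below was not tested.

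In GRCh38 coordinates the family lies between positions 89006666 and 89426243 of chromosome 1, a stretch of 419.6 kb. GBP3 (ENSG00000117226) is at chr1:89006666-89022894, GBP1 (ENSG00000117228) at chr1:89052319-89065360, GBP2 (ENSG00000162645) at chr1:89106132-89150456, GBP4 (ENSG00000162654) at chr1:89181148-89198932 and GBP5 (ENSG00000154451) at chr1:89258950-89272804. All 5 are protein-coding genes on the minus strand. GBP7, GBP6 and the transcribed pseudogene GBP1P1 complete the 8 family genes of the table.

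Promoter sequences were taken from RefSeq (GRCh38.p14), where GBP1, GBP3 and GBP4 of the 5 members matched. They are shown because the interferon response of the family runs through elements near the start sites, and because 2 of them share a stretch. Each line gives 150 bases before and 30 bases from the RefSeq start site, 5′ to 3′ on the gene's own strand. The regions are chr1:89065179-89065358 for GBP1, chr1:89022837-89023016 for GBP3 and chr1:89198913-89199092 for GBP4, all on the minus strand. Capitals mark matches to GAAANNGAAA, the letters used here for the interferon-stimulated response element (ISRE), or to TTCNNNGAA, those for the STAT-binding gamma-activated site (GAS), each searched on both strands.
GBP1: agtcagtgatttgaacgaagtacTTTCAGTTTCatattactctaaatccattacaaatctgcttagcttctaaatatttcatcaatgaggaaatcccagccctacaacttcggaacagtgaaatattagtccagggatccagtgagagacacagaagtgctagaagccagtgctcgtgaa
GBP3: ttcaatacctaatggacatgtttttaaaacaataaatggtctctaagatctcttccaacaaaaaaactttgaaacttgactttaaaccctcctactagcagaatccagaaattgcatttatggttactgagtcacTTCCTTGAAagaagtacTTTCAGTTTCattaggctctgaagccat
GBP4: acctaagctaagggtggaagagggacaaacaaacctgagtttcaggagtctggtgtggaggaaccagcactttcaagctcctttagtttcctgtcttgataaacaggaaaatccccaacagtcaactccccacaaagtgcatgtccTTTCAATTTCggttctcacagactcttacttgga

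Each of the 3 windows held an ISRE match, in each case on the strand opposite the gene. Counted here and below from the RefSeq start site, the match lay at positions -127 to -118 in GBP1, at 3 to 12 in GBP3 and at -4 to 6 in GBP4. These positions depend on the start site taken. The gene coordinates given above place the 5′ end of GBP1 at 89065360, beyond its whole window, and that of GBP3 at 89022894. By those ends the matches of GBP1 (chr1:89065326-89065335) and GBP3 (chr1:89022855-89022864) both lie inside the gene. GBP1 and GBP3 carried the same matched letters, GAAACTGAAA, within a shared run of 19 bases, gaagtactttcagtttcat, which began at -134 in GBP1 and at -5 in GBP3. The match of GBP4 read GAAATTGAAA. GBP3 alone also held a GAS match, TTCCTTGAA, at -15 to -7, and it does not overlap the ISRE match. In the longer promoter window of the RefSeq table, GAAANNGAAA occurred in 3.57% of all 35116 promoters and in 2.78% of the 17339 promoters of tested genes. It occurred in 22% of the 372 promoters, from 250 genes, of genes that were higher in I than in C. The corresponding shares for TTCNNNGAA were 7.66%, 6.26% and 16.7%. The promoters of GBP6 and GBP7 held neither set of letters in the same window. A match is a description of letters, and a window without one says nothing about whether a factor binds there.

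Without IFNγ, the 5 genes were at or near the floor of detection. GBP1, the best known of the family, had 3, 0 and 0 counts in C libraries 1, 2 and 3 and 1, 0 and 0 in D. GBP2 had 7, 13 and 5 counts in C and 5, 6 and 6 in D, and it was the only member with counts in all 6 libraries. The others had empty libraries in both groups. GBP3 had no count in C and 0, 4 and 0 in D. GBP4 had 2, 9 and 0 counts in C and 3, 1 and 0 in D, and GBP5 had none in any of the 6. The summed level of the 5 genes was 0.312 to 1.09 CPM in C and 0.348 to 0.569 CPM in D.

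With IFNγ, GBP1 was among the genes with the highest CPM, and every member was detected in all 6 libraries. The ranks below are by mean CPM, which is not corrected for gene length. GBP1 reached 28889, 25815 and 24405 counts in I libraries 1, 2 and 3, or 1429, 1408 and 1279 CPM, and its mean level ranked 46 of 15828 tested genes. GBP4, a family member that has been described as a brake on antiviral interferon signalling, reached 393, 477 and 381 CPM and rank 326. GBP2, a prenylated member, stood at 123, 290 and 121 CPM and rank 1102. Library 2 was the high one for GBP2, and the 3 GBP1 libraries lay close together. GBP3, which acts with GBP1 on bacterial surfaces, stood at 23.8, 30.8 and 18.6 CPM and rank 7687. GBP5 was the least abundant, at 81, 169 and 56 counts, or 4.01, 9.22 and 2.94 CPM.

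**Figure D1:**
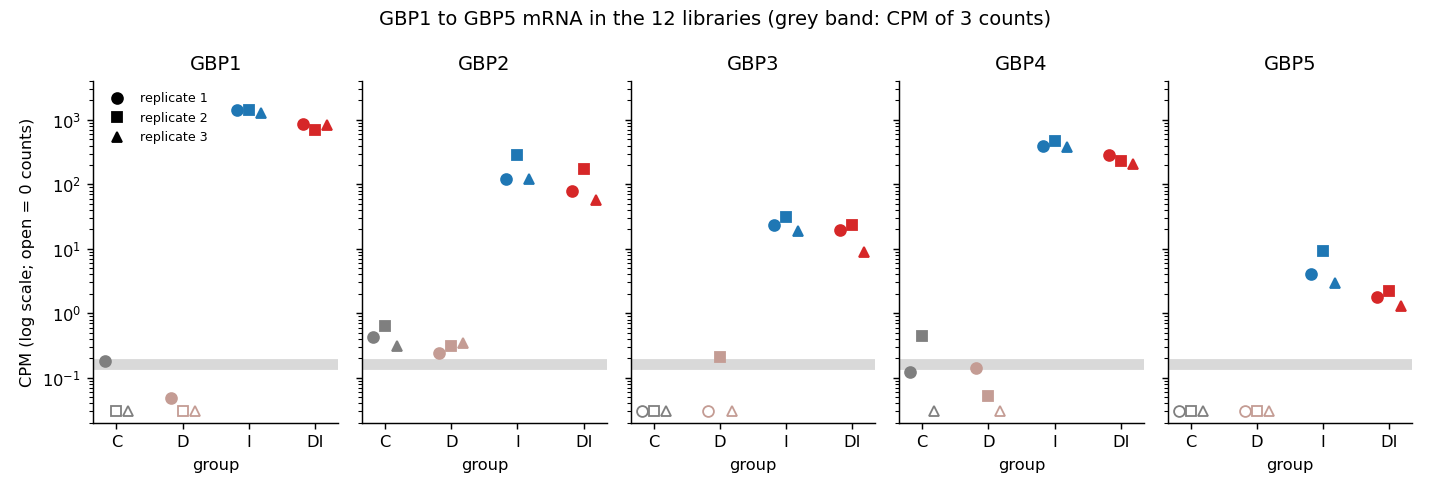
Level of each guanylate-binding protein mRNA in CPM (log scale) in the 12 libraries, by group: C, no agent; D, doxycycline; I, IFNγ; DI, both. Symbols give the replicate number, open symbols stand for 0 counts, and the grey band is the CPM worth 3 counts (0.135 to 0.187). Every I and DI library lies above every C and D library for all 5 genes, and the share of all tested genes that do so was not determined.

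The I group exceeded C for each member, and no I library overlapped a C library. The share of all tested genes whose I and C libraries did not overlap was not determined. The ratio of summed rates was 24000 for GBP1, with an exact 95% Poisson interval of 8212 to 116400 that rests on 3 counts in C. It was 1981 (1107 to 3970) for GBP4 and 368 (249 to 569) for GBP2. GBP3 and GBP5 had no count in C and were at least 141-fold and at least 31.1-fold higher in I, against a floor of 3 counts per library. These intervals and floors cover counting error only. By edgeR's quasi-likelihood test with Benjamini-Hochberg adjustment over 15828 genes, the adjusted p was 2.0e-08 for GBP1, 1.8e-07 for GBP4, 1.06e-05 for GBP2, 0.000272 for GBP3 and 0.00207 for GBP5, where 2.1% of tested genes were higher in I. Each member entered the test through its IFNγ libraries, so that passing it adds little to the levels themselves. The fitted log2 difference was 8.53 (SE 0.63) for GBP2, the only member with counts in every C library, and 10.93 (SE 0.47) for GBP4. C library 2 holds 9 of the 11 GBP4 counts of C, and without it the fitted difference of GBP4 was 12.57. The 3 GBP1 counts of C are all in library 1, so that without it C holds no GBP1 count to set I against.

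The same held on the doxycycline background. GBP1 had 16733, 13351 and 18307 counts in DI, or 859, 685 and 825 CPM, and ranked 107 of 15828 genes by mean CPM. The order of the members by CPM was that of I. GBP4 stood at 283, 231 and 207 CPM, GBP2 at 78.4, 172 and 56.5, and GBP3 at 19.9, 23.3 and 8.83. GBP5 had 35, 43 and 29 counts, or 1.80, 2.21 and 1.31 CPM. No DI library overlapped a D library for any member, and the share of all tested genes that separate in this way was not determined. The DI to D ratio of summed rates was 45530 (8171 to 1798000) for GBP1, on 1 count in D, 3439 (1343 to 12620) for GBP4, 339 (212 to 583) for GBP2 and 244 (94.98 to 896.9) for GBP3, and GBP5 was at least 11.2-fold higher. Single libraries weigh on these ratios. All 4 GBP3 counts of D are in library 2, and without it the fitted log2 difference moved from 7.83 to 11.37, a value that then rests on the prior count. Without D library 1, which holds the 1 GBP1 count and 3 of the 4 GBP4 counts of D, the fitted difference of GBP4 moved from 11.63 to 12.79, and without DI library 2 that of GBP2 moved from 8.40 to 7.80. The adjusted p by edgeR's quasi-likelihood test ran from 2.82e-08 for GBP1 to 0.00643 for GBP5, where 1.67% of tested genes were higher in DI. Here too each member entered the test through its IFNγ libraries, so that passing it adds little to the levels.

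Per kilobase of merged exons, the scale on which genes can be compared, the members kept one order in both IFNγ groups. In I, GBP1 stood at 275 ± 16.3 CPM per kb (SD, n = 3), GBP4 at 68.0 ± 8.54, GBP2 at 28.3 ± 15.5, GBP3 at 5.68 ± 1.42 and GBP5 at 0.661 ± 0.413. In DI the same order ran 158 ± 18.5, 39.3 ± 6.37, 16.3 ± 9.73, 4.03 ± 1.76 and 0.217 ± 0.0553 CPM per kb. No 2 neighbours in the order overlapped in either group. As a ratio, the closest were GBP4 and GBP2 in DI, where the lowest GBP4 library was at 33.8 and the highest GBP2 library at 27.3 CPM per kb. The merged exon length, 4992 bases for GBP1 and 8143 for GBP5, covers all annotated isoforms and may exceed the transcript in use.

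The other family genes also responded. The pseudogene GBP1P1 had 0, 0 and 2 counts in C and 1444, 1272 and 1109 in I, a ratio of 1741 (481.5 to 14380). GBP7 had no count in C and 26, 19 and 8 in I, at least 5.27-fold higher. Both passed edgeR's quasi-likelihood test, with adjusted p of 1.36e-06 and 0.0193. They too entered the test through their IFNγ libraries, so that passing it adds little to the counts themselves. GBP6 had 15, 36 and 2 counts in I and none in C, and too few counts overall to be tested. Sequence sharing limits some of these values. At the 150-base read length, GBP1, GBP3, GBP4, GBP5 and GBP1P1 shared no stretch with the family, while 7.67% of the GBP2 stretches occurred in GBP7, whose gene model overlaps that of GBP2. In the other direction, 19.3% of the GBP7 stretches occurred in GBP2, the far more abundant of the pair. Whether GBP2 reads entered the GBP7 counts was not tested. At 50 bases, 9.62% of GBP1 stretches were shared, most of them with GBP1P1. How reads that match more than 1 gene were counted, and whether strand was used, is not given in the sources used here.

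Beyond the cluster the levels moved far less. Of the 7 nearest protein-coding genes in the table, 2 were higher in I than in C, both adjoining GBP3: KYAT3, a kynurenine aminotransferase, with a log2 difference of 0.86 (SE 0.14) and an adjusted p of 0.00433, and RBMXL1, an RNA-binding protein whose gene overlaps it, with 0.82 (SE 0.14) and 0.00671, both by edgeR's quasi-likelihood test. PKN2, GTF2B, LRRC8B, LRRC8C and LRRC8D had log2 differences between 0.11 and 0.32 and did not pass, although PKN2 passed with the replicate block (adjusted p = 0.0231). In DI against I, 0 of the 7 passed edgeR's quasi-likelihood test, with or without the block.

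**Figure D2:**
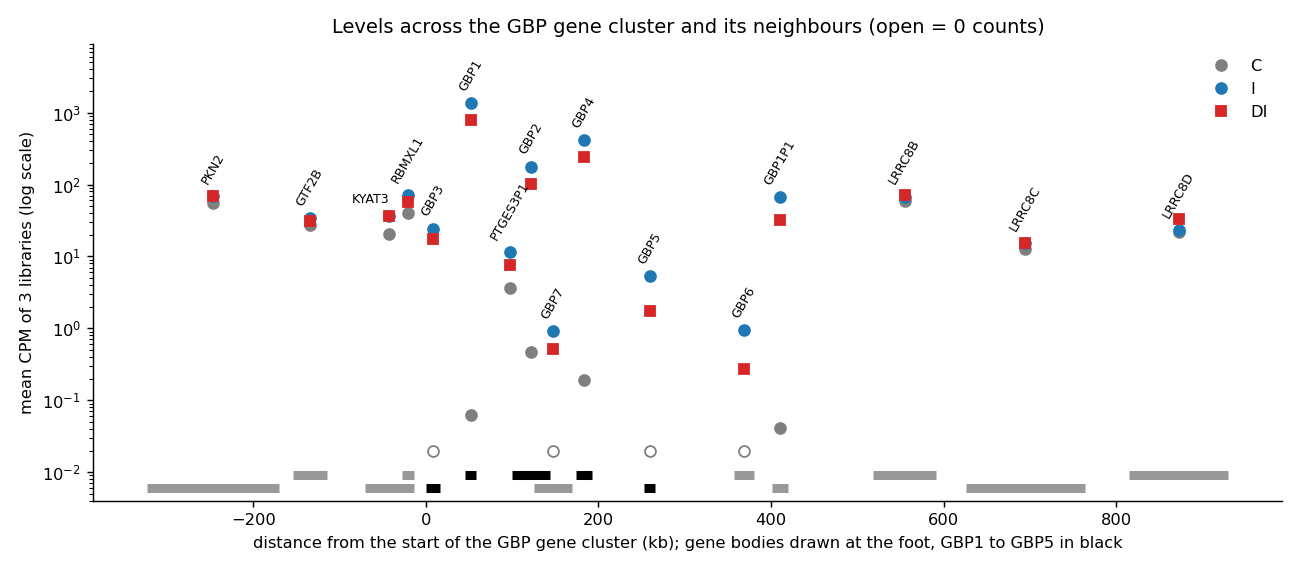
Mean CPM of 3 libraries (log scale) of the GBP family genes, of the pseudogene PTGES3P1 that lies among them and of the neighbouring protein-coding genes, against distance from the start of the cluster in kb. Grey circles are C, blue circles I and red squares DI; open circles stand for 0 counts, and bars at the foot are gene bodies. GBP1 rises from 0.0615 to 1372 CPM, while I and C differ by at most 0.86 on the log2 scale for the genes outside the cluster.

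Doxycycline alone gave no detectable change in the members. None of the 5 passed edgeR's quasi-likelihood test in D against C, where 1.23% of tested genes passed in either direction, nor that test with the replicate block (13.9%) or DESeq2 (4.56%). At an unadjusted p under 0.05 in edgeR the count was 0 of 5 members and 2248 of 15828 genes. The log2 difference was -0.67 (SE 0.91) for GBP2, with an adjusted p of 0.821, and its 95% interval ran from -2.67 to 1.34. For GBP4 it was -1.5 (SE 0.99), with an adjusted p of 0.555, but without C library 2, which holds 9 of the 11 C counts, it was 0.14. GBP1, GBP3 and GBP5 had too few counts in these groups for a fold, and a difference between C and D was not detectable at this depth.

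With IFNγ present, all 5 members stood lower in DI than in I by mean level. GBP1 was at 1372 ± 81.4 CPM (SD, n = 3) in I and 789 ± 92.3 in DI, and the groups did not overlap. GBP4 was at 417 ± 52.3 and 241 ± 39.0 CPM and GBP5 at 5.39 ± 3.36 and 1.77 ± 0.45 CPM, again without overlap. GBP2, at 178 ± 96.9 and 102 ± 61.1 CPM, and GBP3, at 24.4 ± 6.10 and 17.3 ± 7.55 CPM, overlapped between the groups. The share of all tested genes whose I and DI libraries did not overlap was not determined, so the separation has no background to be set against. The log2 difference was -0.80 (SE 0.21) for GBP1, -0.79 (SE 0.27) for GBP4, -0.80 (SE 0.41) for GBP2, -0.49 (SE 0.50) for GBP3 and -1.60 (SE 0.52) for GBP5. The median over the 5 members was -0.80, against -0.01 over all tested genes. In bulk RNA, fewer cells that express a gene and less of its RNA per cell cannot be told apart.

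Whether these differences passed the test depended on the pairing of the libraries and on the tool. By edgeR's quasi-likelihood test without pairing, 0 of 5 members passed, where 0.569% of tested genes were lower in DI, and 3 of 5 had an unadjusted p under 0.05, as had 1934 of the 15828 genes in either direction. The adjusted p was 0.148 for GBP1, 0.257 for GBP4, 0.280 for GBP5, 0.487 for GBP2 and 0.792 for GBP3. With the replicate number as a block, by which the libraries are paired, 4 of 5 members passed in the same test, where 6.62% of tested genes were lower. The blocked adjusted p was 0.00225 for GBP2, 0.00732 for GBP1, 0.0181 for GBP4, 0.0421 for GBP5 and 0.196 for GBP3. DESeq2 without pairing passed 2 of 5, GBP1 with an adjusted p of 9.24e-06 and GBP4 with 0.00323, where 2% of its tested genes were lower.

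In that blocked fit, the call for GBP5 rested on all 6 libraries. Its adjusted p by edgeR's quasi-likelihood test rose to between 0.114 and 0.189 with any 1 of them left out. GBP4 lost its call without I library 2, I library 3 or DI library 3. GBP1 and GBP2 kept theirs in all 6 cases, with adjusted p of at most 0.0434 and 0.0247.

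Taken by replicate number, each of the 15 DI to I ratios of the members was under 1. These ratios come from the same 3 pairs of libraries and are not independent. The share of all tested genes with every ratio under 1 was not determined. For GBP1 the ratio was 0.601, 0.486 and 0.645 in numbers 1, 2 and 3, a mean of 0.577 ± 0.0818 (SD, n = 3). For GBP2 it was 0.639, 0.592 and 0.467, a mean of 0.566 ± 0.0886. For GBP4 it was 0.722, 0.485 and 0.543, a mean of 0.583 ± 0.123. These 3 genes, whose levels in I do not overlap, thus had mean ratios that differed by less than the SD of any of them. GBP3 had the widest spread, with 0.835, 0.757 and 0.475, and GBP5 the lowest ratios, with 0.448, 0.239 and 0.445. The ratios of GBP1P1 were 0.541, 0.395 and 0.495, and its blocked adjusted p in edgeR's quasi-likelihood test was 0.0116, against 0.199 without the block. GBP7, on 12, 12 and 7 counts in DI, had ratios of 0.479, 0.594 and 0.752 and did not pass (adjusted p = 0.691 by edgeR's quasi-likelihood test).

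**Figure D3:**
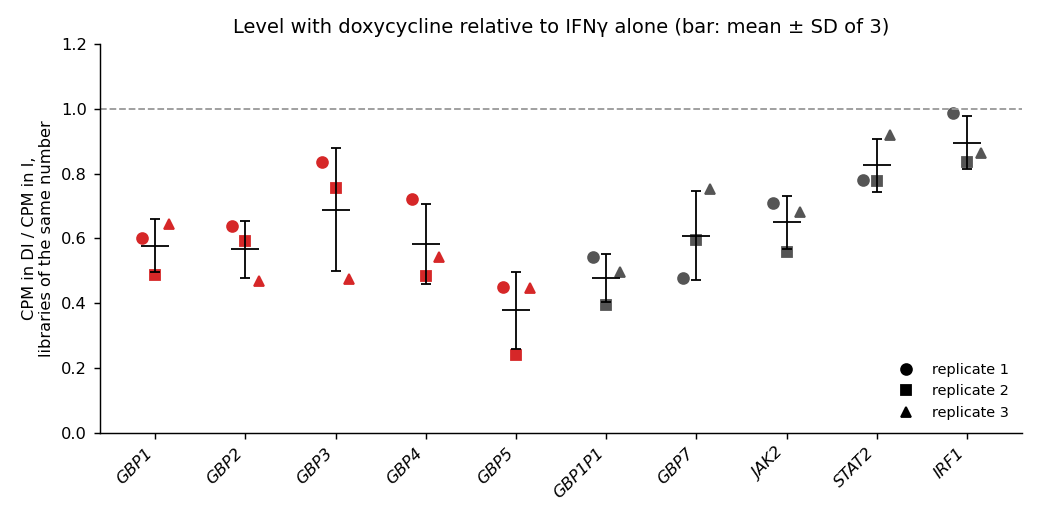
Ratio of CPM in DI to CPM in I for libraries of the same replicate number, for the 5 members (red), 2 other family genes and 3 genes of the IFNγ pathway (grey). Other pathway genes are not drawn, among them IRF9, with ratios of 1.295, 1.698 and 2.742. Bars are the mean ± SD of 3 ratios and the dashed line is a ratio of 1. All 15 member ratios lie below the line, between 0.239 and 0.835, and those of IRF1 lie between 0.835 and 0.987.

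Library number 2 stood out for some members and not for others. In I, library 2 was 2.38 times the mean of libraries 1 and 3 for GBP2, 2.66 times for GBP5 and 1.45 times for GBP3, but 1.04 times for GBP1 and 1.23 times for GBP4. In DI the same quotient was 2.54 for GBP2, 1.62 for GBP3 and 1.42 for GBP5, against 0.813 for GBP1 and 0.943 for GBP4. GBP2, GBP3 and GBP5 thus had their highest level in library 2 in both IFNγ groups. GBP4 had it there in I alone, and GBP1 in neither group. For GBP5 in DI this rests on 43 counts against 35 and 29, and the differences between libraries were not tested. Without I library 2 the unpaired log2 difference of GBP2 between DI and I moved from -0.80 to -0.26, and without DI library 2 to -1.40. The same omission of I library 2 moved GBP5 from -1.60 to -0.97. Over the 6 IFNγ libraries, Pearson's r of log2 CPM was 0.927 for GBP1 with GBP4, 0.873 for GBP2 with GBP5 and 0.864 for GBP2 with GBP3, and 0.421 for GBP1 with GBP2. These 6 libraries hold both groups, so the difference between I and DI enters each r.

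The share of each member in the summed counts of the family overlapped between I and DI. GBP1 made up 69.0% ± 4.76 (SD, n = 3) of the summed counts of the 5 genes in I and 68.6% ± 6.80 in DI. GBP4 made up 20.9% ± 0.851 and 20.8% ± 1.98, GBP2 8.67% ± 3.83 and 8.96% ± 5.62, GBP3 1.21% ± 0.178 and 1.5% ± 0.650, and GBP5 0.261% ± 0.136 and 0.154% ± 0.0404. The exact two-sided permutation p was 1 for GBP1 and GBP4, 0.9 for GBP2, 0.6 for GBP3 and 0.2 for GBP5, with a Benjamini-Hochberg value of 1 for each of the 5 shares, but 3 libraries against 3 cannot give a p under 0.1, so that this test could not have shown a change, and it does not use the pairing. By replicate number the share of GBP5 was lower in DI each time, at 0.203 and 0.145%, 0.416 and 0.198%, and 0.163 and 0.119% in I and DI for numbers 1, 2 and 3, while the shares of the other 4 members moved in both directions. Summed, the 5 genes took 0.171 to 0.212% of all counts in I and 0.112 to 0.125% in DI.

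**Figure D4:**
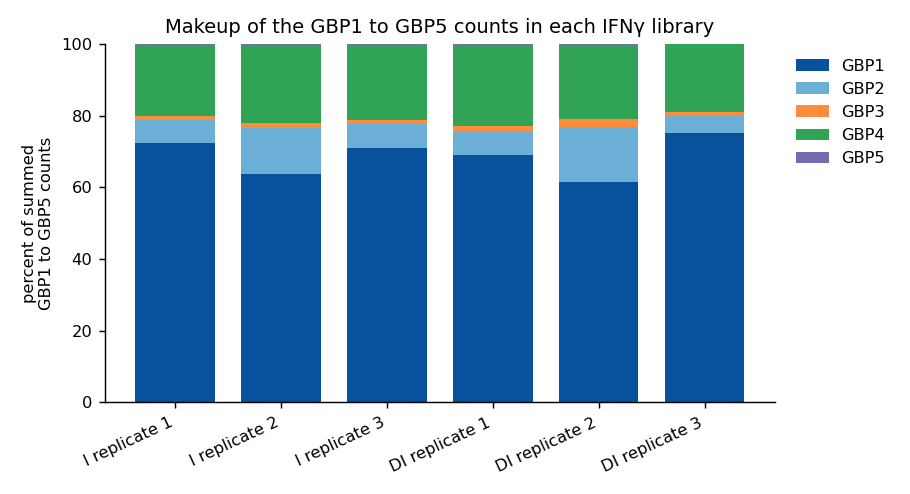
Percent of the summed GBP1 to GBP5 counts taken by each gene in the 3 I and 3 DI libraries. GBP1 takes 61.5 to 75.1% in every library, and GBP2 is widest in library 2 of both groups, at 13.1% in I and 15.4% in DI.

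The response to IFNγ with and without doxycycline was also compared directly, as the interaction of the 2 agents. None of the 5 members passed edgeR's quasi-likelihood test, with or without the block, or DESeq2, and 0 of 5 had an unadjusted p under 0.05. Of all tested genes, 0% of 15828 passed in edgeR and 1 of 26556 in DESeq2, and 99 had an unadjusted p under 0.05 in edgeR. The interaction was -0.13 on the log2 scale (95% interval -2.60 to 2.33) for GBP2 and 0.70 (-1.47 to 2.88) for GBP4. The few counts in C and D enter the interaction as its baseline. A smaller fold response to IFNγ and a lower baseline with an equal fold response therefore cannot be told apart in these libraries.

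Genes of the IFNγ pathway were compared on the same libraries. Of 15 listed genes, all tested, 10 were higher in I than in C and 0 were lower by edgeR's quasi-likelihood test (12 and 0 with the block), with a median log2 difference of 2.51 against -0.01 over all tested genes. IRF1 rose by 7.58 (SE 0.18), the feedback inhibitor SOCS1 by 5.89 (SE 0.51) and the receptor kinase JAK2 by 2.89 (SE 0.27) on the log2 scale. STAT2, STAT3, IRF2, IRF9 and SOCS3 rose by 1.94 to 3.46, and IRF8 had no count in C or D and 26.6 ± 15.1 CPM (SD, n = 3) in I. IFNGR1 and IFNGR2, the receptor chains, JAK1, the phosphatase PTPN2 and PIAS1 did not pass, with log2 differences of 0.03, 0.29, 0.25, 0.91 and 0.10, and the block added IFNGR2 and PTPN2. In DI against I, 0 of 15 passed with or without the block, and the median log2 difference was -0.20.

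The DI to I ratio was 0.896 ± 0.0806 (mean ± SD, n = 3) for IRF1, 0.826 ± 0.0818 for STAT2, 0.649 ± 0.0808 for JAK2 and 1.91 ± 0.747 for IRF9, and I and DI overlapped for IRF1, JAK2 and STAT2. IRF9 was higher in DI without overlap, at 3.30 to 6.19 CPM in I and 8.01 to 9.08 in DI. The ratios of GBP1, GBP2 and GBP4 lay under those of STAT2 and IRF1 in each replicate number. JAK2, at 0.710, 0.558 and 0.680, lay under GBP4 in number 1 and under GBP2 in number 2. The differences between these genes were not tested. SOCS1 was at 51.6 ± 5.10 CPM in I and 28.0 ± 4.04 in DI, with a blocked adjusted p of 0.0601 by edgeR's quasi-likelihood test.

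Partners of the GBPs were sparse. Of 12 genes around caspase-4 and the inflammasomes, 6 had enough counts to test and 1, CASP1, the protease that matures interleukin-1β, was higher in I than in C, with an adjusted p of 0.029 by edgeR's quasi-likelihood test. It had no count in C and 27, 23 and 10 in I. CASP1 entered the test through its IFNγ libraries, so that passing it adds little to these counts. CASP4, the lipopolysaccharide sensor, had 12, 16 and 2 counts in I and was not tested. The pore-forming GSDMD was at 1.13 ± 0.154 CPM in C and 20.5 ± 3.44 in I, with an adjusted p of 0.1003 by edgeR's quasi-likelihood test and 0.00367 with the block. In DI against I, 0 of 6 passed, and NEK7, a kinase that binds NLRP3, was at 55.3 ± 11.6 CPM in I and 26.3 ± 5.53 in DI, with adjusted p of 0.0901 and, blocked, 0.000258 by the same test. NEK7 was also at 24.2 ± 5.73 CPM in D and 52.3 ± 13.1 in C.

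Enzymes that attach and process the prenyl anchor were expressed and did not pass in any comparison. All 6 listed were tested, and their median log2 difference was -0.02 for I against C and -0.01 for DI against I. FNTA, the shared subunit of the prenyltransferases, was at 73.1 ± 7.38 CPM (SD, n = 3) in I and 70.4 ± 10.6 in DI. Among 15 related GTPases of the dynamin superfamily and the immunity-related family, 11 were tested and 0 passed edgeR's quasi-likelihood test in either comparison. With the block, DNM1L passed in I against C (adjusted p = 0.0305), and DNM3 and IRGQ passed in opposite directions in DI against I, both with an adjusted p of 0.0251. MX1 and MX2, dynamin-like GTPases known chiefly as type I interferon products, had 24, 7 and 5 and 4, 5 and 0 counts in I.

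Across all 12 libraries, the genes most like each member in log2 CPM were sought among 13956 genes averaging at least 1 CPM. For GBP1 they were PSMB9 (Pearson's r = 0.999) and PSMB8 (0.998), subunits of the immunoproteasome, and PSMB8-AS1 (0.998). NUCB1, APOL1 and ICAM1 led for GBP2, PML, STARD8 and SAMD9 for GBP3, PARP9, B2M and APOL1 for GBP4, and IDO1 and SAMD9 for GBP5, all with r of at least 0.993. The step between libraries with and without IFNγ enters each of these r, and 247 to 259 genes had r over 0.9 with each member. Over the 6 IFNγ libraries alone the nearest genes were others, and ERLIN2, FAM91A1 and GNPDA1 led for GBP1, GALNT16, ASIC2 and CCNI for GBP2, BDNF, AMHR2 and VSTM2A for GBP3, AMMECR1L, ND6 and RPL23 for GBP4, and UNC45A, EEF2 and APP for GBP5. With 6 points that share libraries and groups, 240 to 381 genes had r over 0.9 with each member, so these names single out little.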

How the data were processed

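RNA was sequenced by the study as Illumina paired-end reads of 150 bases. The values used are the deposited gene counts, which the authors made from reads; aligner, counting tool, strand setting and build are not given in the sources used here, and all 43769 gene IDs occur in GENCODE 29 (GRCh38). The submitters' processing notes name DESeq2. The authors' comparison tables and 18 further per-library columns without explanation were not used.

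Counts were fitted with edgeR 4.0.16 (R 4.3.3; quasi-likelihood test, TMM, filterByExpr with a minimum count of 10) over 15828 genes and all 4 groups, with Benjamini-Hochberg adjustment over all of them and a threshold of 0.05. DESeq2 1.42.0, other scalings, no filter, a replicate block and leaving out each library were alternatives, and the scripts were tested on simulated data. Samples were grouped by title. Same-numbered libraries deviated together from their group means (r from 0.338 to 0.804 in all 18 pairs of libraries, against -0.628 to 0.143 for other numbers), so the numbers pair the libraries. Genes named are the 5 members, ARID1A, listed genes, the nearest protein-coding genes and the 3 genes most like each member; PTGES3P1 in a plot was chosen after its values were seen. Values of some listed or similar genes are not reported here. Members and lists were chosen with earlier results of these data known, and the block with a library left out was added after seeing the data.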

Additional observations from a re-analysis of the deposited data

How the results depend on the processing

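All 5 members passed in I against C and in DI against D, and none passed in D against C or in the interaction, under every alternative run: DESeq2, DESeq2 size factors in edgeR, library size alone, no filter on low counts, only the 6 libraries compared (not for the interaction), the replicate block and each library left out. Of all tested genes, 2.1% (edgeR), 4.88% (block) and 2.67% (DESeq2) were higher in I than in C. For DI against D the shares were 1.67%, 3.77% and 2.19%. In D against C 1.23%, 13.9% and 4.56% passed in either direction. In the interaction 0% passed in edgeR, with or without the block, and 1 gene in DESeq2. Where a filter was used, each member entered through its IFNγ libraries, so that passing adds little to the levels. In DI against I the number of members that passed was 0 in the unpaired edgeR fits, 2 by DESeq2 and 4 with the replicate block, and with the block and 1 library left out it ran from 2 to 3. The share of tested genes lower in DI was 0.569% in the main edgeR fit, 2% by DESeq2 and 6.62% with the block. For the other settings the share of all tested genes was not determined. The blocked log2 difference was -0.80 for GBP1, -0.83 for GBP2, -0.80 for GBP4 and -1.47 for GBP5, and by DESeq2 it was -0.80 for both GBP1 and GBP4. With the block and 1 library left out, the log2 difference ran from -0.90 to -0.67 for GBP1, from -0.92 to -0.69 for GBP2, from -0.96 to -0.66 for GBP4 and from -1.63 to -1.15 for GBP5. Within those ranges it was -0.81 and -0.70 for GBP1 without DI library 1 or 2, -0.82, -0.72 and -0.91 for GBP2 without I library 2, I library 3 or DI library 2, and -0.95 for GBP4 without I library 1. Unpaired, with 1 library left out, it ran from -0.86 to -0.71 for GBP1, from -1.40 to -0.26 for GBP2, from -0.77 to -0.18 for GBP3, from -0.93 to -0.69 for GBP4 and from -1.88 to -0.97 for GBP5. The block changed no other call of a member. With 1 library left out, some values that did not pass turned direction, namely GBP4 in D against C (-2.66 to 0.14), the interactions of GBP2 (-0.73 to 0.41) and GBP4 (-0.92 to 1.87), and the DI minus I differences in share, in percentage points, of GBP1 (-3.67 to 3.11), GBP2 (-2.94 to 2.49), GBP3 (-0.0078 to 0.636) and GBP4 (-1.05 to 0.932). Depth limits the comparisons without IFNγ, where 4 of the 5 members had at most 11 counts in a group of 3 libraries.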
